A study of Schizosaccharomyces pombe with 6 samples.

Results

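Transcript levels of the transcription factors known to control flocculation were examined in the fission yeast Schizosaccharomyces pombe. Of the 9 factors named for this purpose (mbx1, mbx2, cbf11, cbf12, adn2, adn3, sre2, rfl1 and fkh2), 8 had a probe set annotated with their symbol, with 1 probe set each, among 2896 S. pombe genes measured. rfl1 was not analysed here. The 8 genes were taken by symbol and not by their values.

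The YEPME mixtures were cells of the h+ strain YHL6381 and the h- strain SPQ-01 kept for 90 min in YEPME, 3 arrays, and the YEPD mixtures were the same strains kept for 90 min in YEPD, 3 arrays. Each strain was first cultured separately in YEPD (30 °C, OD600 of 5.0), and equal parts were then combined, so every culture held both mating types. The study is about sexual flocculation, in which h+ and h- cells clump together, and the design text describes the YEPME mixtures as flocculated and the YEPD mixtures as not flocculated. Values are log2 probe set levels from Affymetrix arrays of whole mixtures, in which a change per cell and a change in the share of P or M cells cannot be told apart. The medium was taken from each sample's own growth label, since the design text attaches the codes YSD and YSM to the media the other way round than the sample labels do, and the sign of every difference between media and of every interaction below would turn if the design text held. The YEPME samples also carry a diploid strain label, while their other labels describe a mixture.

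Fission yeast can flocculate when cell surface glycoproteins of the flocculin family hold cells together through galactose residues. Whether this took place in the h+ and h- mixtures was not tested. Mbx2, a MADS-box factor, switches on the main flocculin gene gsf2 and other pfl flocculin genes. Cbf12 and Cbf11 belong to the CSL family (the DNA-binding factors of animal Notch signalling); Cbf12 promotes cell adhesion and Cbf11 opposes it. adn2 and adn3 were named for the adhesion defect of their mutants, and sre2 encodes a relative of the sterol regulator Sre1. Fkh2, a forkhead factor, and Mbx1, another MADS-box factor, act on genes expressed late in mitosis.

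The replicate 1 arrays of both media stood apart from the other 4. Over all probe sets they correlated at 0.994 with each other and at 0.976 to 0.981 with the replicate 2 and 3 arrays, which correlated at 0.998 to 0.999 among themselves. Their values are written with up to 10 digits against up to 6 elsewhere. Counts of factors called are therefore given for the 6 arrays with no block, with replicate 1 against replicates 2 and 3 as a block, and within replicates 2 and 3. Differences of single factors are given with the block, and for some factors also with no block or within replicates 2 and 3. All 8 factors lay above the background set by S. cerevisiae probe sets on every array, by at least 1.80 on the log2 scale. Markers of the M (h-) mating type also shifted in replicate 1. The summed level of the 8 measured M cell genes was 12.35 (log2) in YEPME and 13.82 in YEPD there. Of the 8, 7 were lower and 1 higher in YEPME, against 44.4% of all genes higher. In replicates 2 and 3 the sum was 12.20 and 12.19 in YEPME and 11.99 and 11.96 in YEPD. The M cell sum is weighted to single genes, mainly mfm2 in YEPD of replicate 1 (13.10). mfm2 differed by -2.41, 0.74 and 0.72 in pairs 1, 2 and 3. The mean log2 level of the 8 was 8.64, 8.38 and 8.39 in YEPME and 9.66, 8.23 and 8.19 in YEPD. For the 5 measured P cell genes the sum was 12.68, 12.59 and 12.66 in YEPME and 12.63, 12.48 and 12.40 in YEPD. That sum is weighted to the highest of them, sxa1, which differed by 0.02, 0.02 and 0.19 in pairs 1, 2 and 3. The mean log2 level of the 5 was 8.91, 9.09 and 9.07 in YEPME and 8.78, 8.73 and 8.70 in YEPD. Among these 5, limma called 4 higher within replicates 2 and 3, and 2 of the 8 M cell genes, against 6.91% of all genes. The part of these shifts in the differences below was not tested.

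With all 6 arrays, no transcript of the 8 factors passed the test between media. limma called 0 of the 8 at an adjusted p under 0.05 with replicate 1 as a block, against 2.07% of all genes, and 0 of the 8 without a block, against 0% of all genes. The 3 YEPME arrays lay wholly above or below the 3 YEPD arrays for 0 of the 8, against 5.7% of all genes. At an unadjusted p under 0.05, 1 of the 8 factors (cbf12) passed with the block, against 16.5% of all genes, and 0 without it, against 1.1%. The block changes the spread a difference is set against and not the difference. When the fit was limited to replicates 2 and 3, 1 of the 8 rose, adn2, against 6.91% of all genes higher. The difference itself departed between replicate 1 and replicates 2 and 3 for 5 of the 8 (mbx1, mbx2, cbf12, adn2 and fkh2) in a limma interaction test, against 46.4% of all genes. Replicate 1 has 1 array per medium, so that test assumes that its arrays vary like the others. The labels call the replicates biological, and nothing further says how the cultures were separated.

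**Figure D1:**
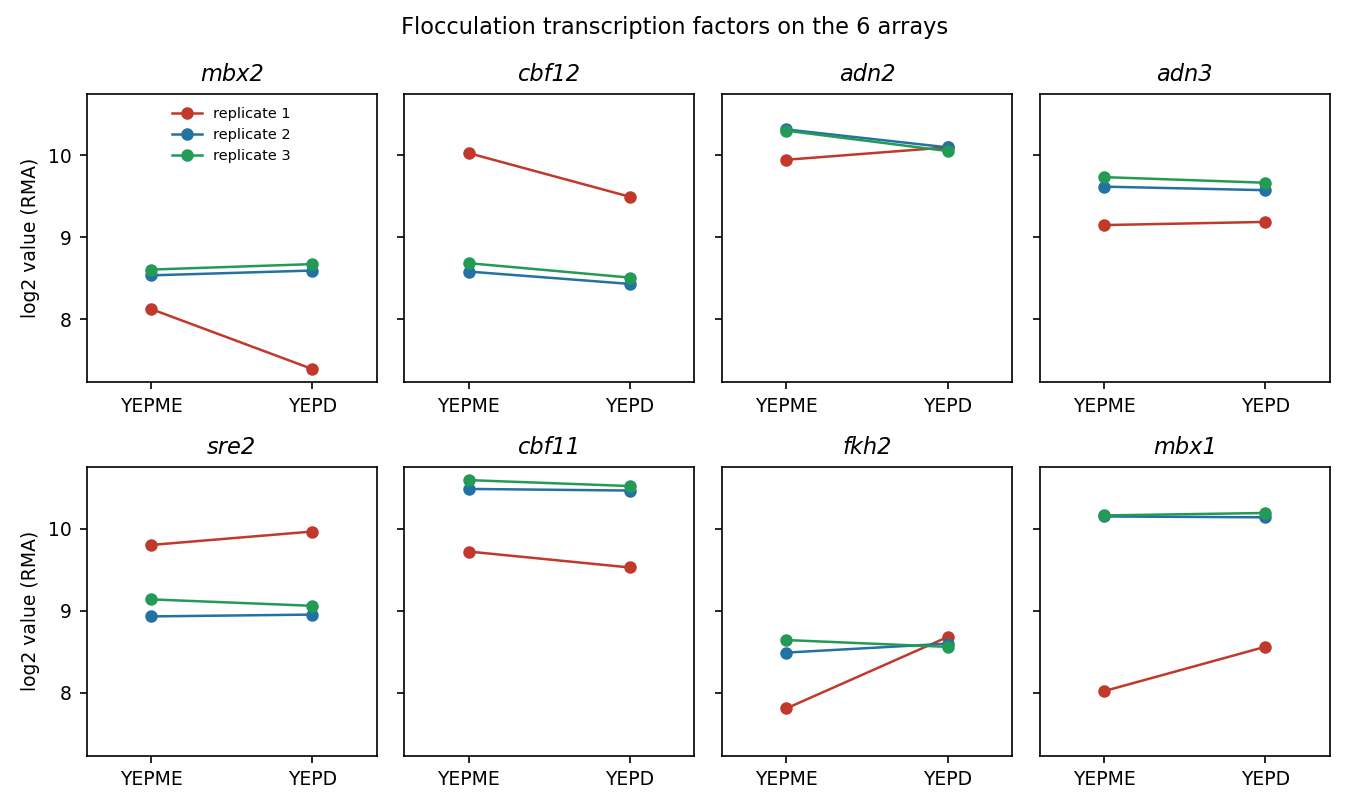
Log2 level (y axis) of each of the 8 factors in YEPME and YEPD (x axis), with a point per array and a line joining the arrays of 1 replicate number. Replicates 2 and 3 lie close together in every panel, while replicate 1 lies outside the other 4 arrays for 6 of the 8 factors.

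mbx2 (SPBC317.01), the activator of the flocculin genes, was higher in YEPME in replicate 1 and slightly lower in the other pairs. Its level was 8.12, 8.53 and 8.61 in YEPME in replicates 1, 2 and 3, against 7.39, 8.59 and 8.67 in YEPD. The lowest value was the YEPD array of replicate 1, and the media overlapped. The difference was 0.73 in replicate 1, a 1.66-fold higher level at the 96.9th percentile of all genes in that pair, and -0.06 and -0.07 in replicates 2 and 3. With the block the mean difference was 0.20 ± 0.17 (SE; 95% interval -0.24 to 0.65; limma, adjusted p = 0.617). On the replicate 2 and 3 arrays alone it was -0.06 ± 0.05 (interval -0.18 to 0.05; adjusted p = 0.39). The departure of replicate 1 from the other pairs was 0.80 ± 0.08 (adjusted p = 0.0028).

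Of 11 named flocculin and agglutinin genes, 3 were measured, and 2 rose with the block: map4 and mam3, the agglutinins of P and M cells (limma, adjusted p = 0.0404 for both), against 0.76% of all genes higher. With the replicate number as a block both had an adjusted p of 0.177 and did not pass. pfl8, a flocculin and the measured gene nearest in kind to the known targets of Mbx2, is named here after its values were seen. It differed by 0.13, -0.14 and 0.02 between media in replicates 1, 2 and 3 (adjusted p = 0.993 with the block). In pairs 1, 2 and 3, map4 differed by 0.39, 0.55 and 0.62 and mam3 by 0.36, 0.39 and 0.38. Whether any of these 3 genes varied with mbx2 was not tested. Between replicates, pfl8 had by far the larger shift. Its level on the replicate 1 arrays minus that on the other 4 was -3.91 on the log2 scale, and for mbx2 it was -0.84. The remaining genes of the 11, gsf2 among them, were not analysed here.

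cbf12 (SPCC1223.13) was higher in YEPME in each of the 3 pairs. It had 10.03, 8.58 and 8.68 in YEPME in replicates 1, 2 and 3, against 9.49, 8.43 and 8.51 in YEPD. Within each replicate number the YEPME array was the higher, but replicate 1 of both media lay above all others, so the media overlapped. The differences were 0.53, 0.15 and 0.18, at the 93.5th, 88.6th and 90.8th percentiles of all genes. The mean difference was 0.29 ± 0.09 with the block (interval 0.05 to 0.52), 1.22-fold, with an unadjusted limma p of 0.027 and an adjusted p of 0.236. With no block the same difference had an adjusted p of 0.999. In replicates 2 and 3 alone it was 0.16 ± 0.05 (adjusted p = 0.0968). The difference was larger in replicate 1 than in the other pairs, by 0.37 ± 0.09 (interaction adjusted p = 0.0264). Without YEPD replicate 2 or YEPD replicate 3 this departure no longer passed (adjusted p = 0.0639 and 0.0922).

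cbf11 (SPCC736.08), whose product opposes that of cbf12 in cell adhesion, was also higher in YEPME in all 3 pairs, by smaller amounts. It had 9.72, 10.49 and 10.59 in YEPME and 9.53, 10.47 and 10.52 in YEPD. The differences of 0.19, 0.02 and 0.07 averaged 0.10 ± 0.06 with the block (interval -0.06 to 0.25; adjusted p = 0.485), and no departure between replicates passed (0.15 ± 0.08, adjusted p = 0.213). cbf11 and cbf12 were the 2 of the 8 factors with the same sign in all 3 pairs, higher in each, as 16.7% of all genes were. Their replicate 1 levels went opposite ways: the level there minus that on the other 4 arrays was -0.89 for cbf11 and 1.21 for cbf12. Of 10 measured genes of lipid and biotin metabolism linked to Cbf11, including cut6 for acetyl-CoA carboxylase, 0 passed limma with the block or within replicates 2 and 3. Their median difference was 0.05 with the block, against -0.01 for all genes, and single genes ranged from -0.56 to 1.32 in replicate 1 but from -0.13 to 0.25 in the other pairs.

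adn2 (SPBC1289.10C) was the factor that rose within replicates 2 and 3. In YEPME it had 10.32 and 10.30 in replicates 2 and 3, against 10.10 and 10.05 in YEPD. Replicate 1 went the other way, with 9.95 in YEPME and 10.10 in YEPD. The 2 YEPME arrays of replicates 2 and 3 lay above both YEPD arrays, and on all 6 arrays the media overlapped. The differences in pairs 1, 2 and 3 stood at the 34.9th, 94.8th and 95.3rd percentiles of all genes. Within replicates 2 and 3 the difference was 0.23 ± 0.03 (interval 0.15 to 0.32), 1.18-fold, with an adjusted limma p of 0.0159. This call is lost without YEPD replicate 2 (adjusted p = 0.114) or YEPD replicate 3 (adjusted p = 0.148). With all 6 arrays and the block it was 0.10 ± 0.09 (interval -0.13 to 0.34; adjusted p = 0.619), and the departure of replicate 1 was -0.38 ± 0.06 (adjusted p = 0.00798). The 4 arrays of replicates 2 and 3 also separated by medium for cbf12, so 2 of the 8 factors were higher on both YEPME arrays, against 32.5% of all genes.

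adn3 (SPCC1494.10) differed little between media in any pair. It had 9.15, 9.62 and 9.73 in YEPME and 9.19, 9.57 and 9.66 in YEPD, so that replicate number set the order of the arrays. The difference was 0.02 ± 0.06 with the block, with an interval of -0.13 to 0.17 (adjusted p = 0.879). sre2 (SPBC354.05C) had 9.80, 8.93 and 9.14 in YEPME and 9.97, 8.95 and 9.06 in YEPD. Its differences of -0.16, -0.02 and 0.08 had no common sign, and the mean was -0.04 ± 0.08 (interval -0.25 to 0.18; adjusted p = 0.874). For both genes the intervals with the block keep the mean difference below 0.25 in size. With no block, the planned test, they were wider: -0.51 to 0.56 for adn3 and -0.93 to 0.86 for sre2.

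Genes tied to these factors by function were mostly uncalled. Of 16 measured genes for cell wall synthesis and remodelling, 0 passed with the block, and within replicates 2 and 3 the glucan exoglucosidase gene exg1 rose by 0.28 and the glucanosyltransferase gene gas4 fell by 0.20, as 6.91% of all genes rose and 8.7% fell there. exg1 differed by 0.38, 0.24 and 0.32 in the 3 pairs (adjusted p = 0.0518 with the block), and gas4 by -0.80, -0.23 and -0.17. Of 14 sterol and SREBP pathway genes, sre2 included, 0 passed with the block. Within replicates 2 and 3, 1 of the 14, erg31, for a sterol desaturase, fell by 0.25, as 8.7% of all genes fell there. In replicate 1, 12 of these 14 were lower in YEPME and 2 higher, against 44.4% of all genes higher. The median there was -0.16 against -0.04 for all genes, and it was 0.01 and 0.07 in pairs 2 and 3.

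fkh2 (SPBC16G5.15C), for the forkhead factor of late mitosis, was lower in YEPME in replicate 1 and close to even in the other pairs. It had 7.81, 8.49 and 8.64 in YEPME, against 8.68, 8.60 and 8.56 in YEPD. The YEPME array of replicate 1 alone lay apart, and the other 5 arrays spanned 8.49 to 8.68. The difference in replicate 1 was -0.87, a 1.83-fold lower level at the 2.04th percentile of all genes, and in replicates 2 and 3 it was -0.11 and 0.08. With the block the mean was -0.30 ± 0.19 (interval -0.78 to 0.18; adjusted p = 0.49), and within replicates 2 and 3 it was -0.01 ± 0.06 (interval -0.17 to 0.14). The departure of replicate 1 was -0.86 ± 0.10 (adjusted p = 0.0043), the widest in size among the 8 factors in that test.

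mbx1 (SPBC19G7.06), which acts on the same late mitotic genes, followed a similar course between media at a level that differed far more between replicates. It had 8.02, 10.15 and 10.16 in YEPME and 8.56, 10.14 and 10.19 in YEPD. The difference was -0.54 in replicate 1, at the 6.84th percentile, and 0.01 and -0.03 in replicates 2 and 3. With the block the mean was -0.19 ± 0.12 (interval -0.49 to 0.12; adjusted p = 0.491), and the departure of replicate 1 was -0.53 ± 0.06 (adjusted p = 0.00387).

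Of 19 measured genes listed as expressed with Fkh2 and Mbx1 in late mitosis, 0 passed with the block. The list holds mcm2, a replication gene that entered through its synonym cdc19. In replicate 1, 15 of the 19 were lower in YEPME and 4 higher, against 44.4% of all genes higher. The median there was -0.36, against -0.04 for all genes. In pairs 2 and 3 the numbers lower were 11 and 10, with a median of -0.02 in both. In the fit of replicates 2 and 3, the kinesin gene klp8 rose by 0.44 and spo12, for a regulator of mitotic exit, fell by 0.22. These were 1 higher and 1 lower of the 19, against 6.91% and 8.7% of all genes. spo12 differed by -0.56, -0.23 and -0.21 in the 3 pairs, whereas klp8 differed by -0.36, 0.47 and 0.40. Named after their values were seen, plo1, for the polo kinase, differed by -0.65, -0.12 and -0.08, and cdc15, for a contractile ring protein, by -0.50, -0.07 and -0.05.

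**Figure D2:**
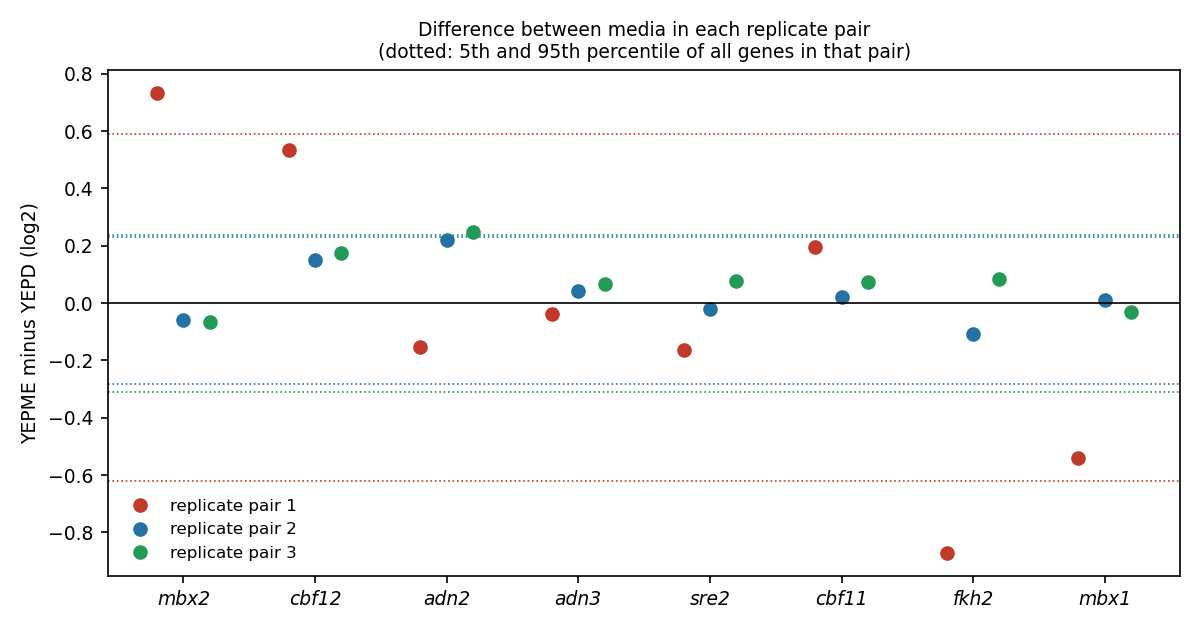
Difference YEPME minus YEPD on the log2 scale (y axis) for each factor (x axis) in replicate pairs 1, 2 and 3, with dotted lines at the 5th and 95th percentile of all 2896 genes in the pair of that colour. In pair 1, mbx2 (0.73) lies above and fkh2 (-0.87) below these limits, and in pair 3 adn2 (0.25) lies just above the upper one.

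Across the 8 factors, pair 1 gave the wider values. Differences ran from -0.87 to 0.73 in replicate 1, from -0.11 to 0.22 in replicate 2 and from -0.07 to 0.25 in replicate 3. The numbers of factors higher in YEPME were 3, 5 and 6 of 8, against 44.4%, 51.5% and 50.4% of all genes. Pair 1 held the largest difference in size for 6 of the 8 factors, and it did so for 67.8% of all genes. The median difference in size was larger for the factors than for all genes, 0.36 against 0.20 in pair 1 and 0.15 against 0.08 with the block, and this contrast was not tested. With signs, the median with the block was 0.06 over the factors and -0.01 over all genes. Arrays of the same medium in replicates 2 and 3 differed by 0.01 to 0.21 for these genes.

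**Figure D3:**
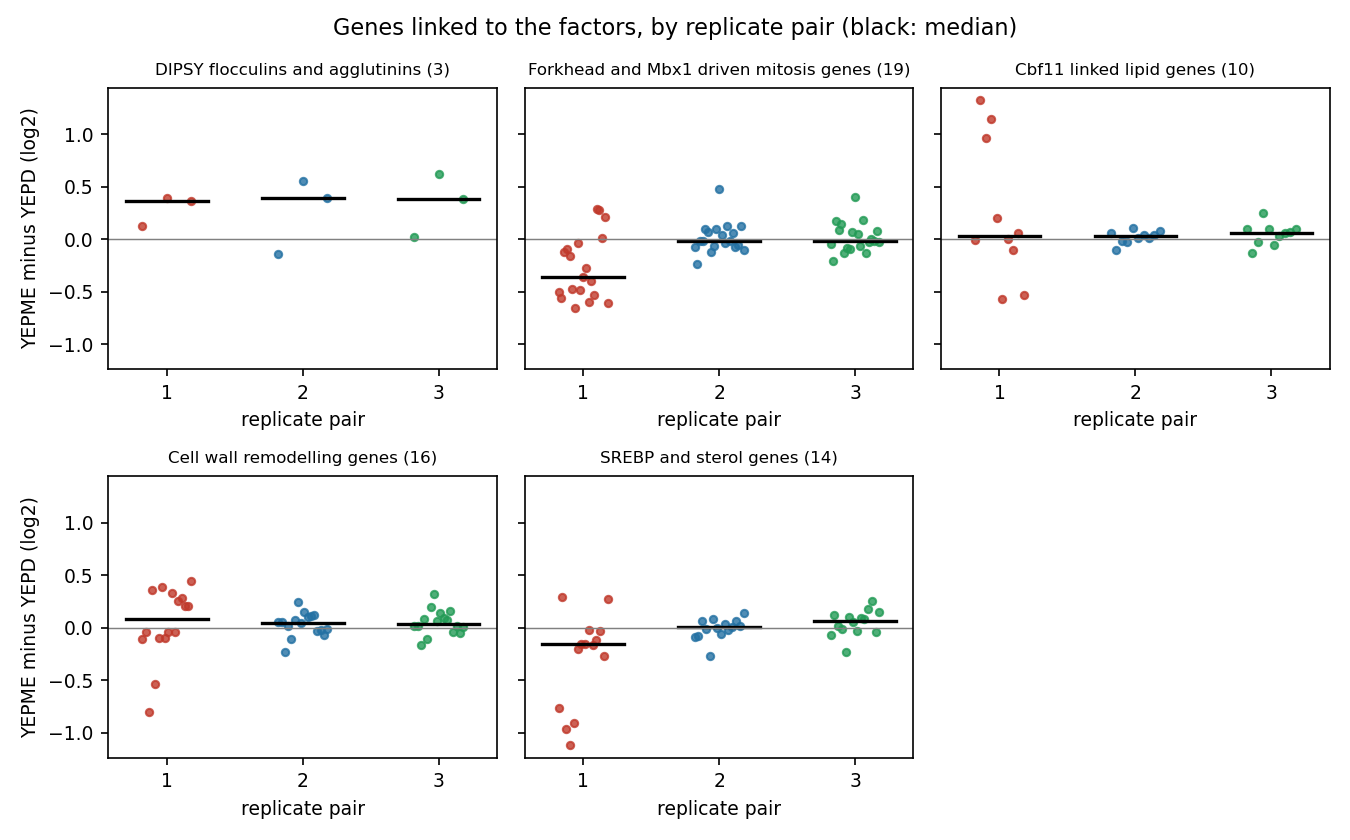
Difference YEPME minus YEPD on the log2 scale (y axis) in replicate pairs 1, 2 and 3 (x axis) for the measured genes of 5 groups tied to the factors, a point per gene, with the number of genes in brackets and a black line at the median. The late mitotic genes have a median of -0.36 in pair 1 and -0.02 in pairs 2 and 3.

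Between replicates, the levels of 6 of the 8 factors differed in limma with medium as a covariate, against 71% of all genes. For mbx1 the replicate 1 level minus that of replicates 2 and 3 was -1.87 ± 0.13 on the log2 scale, a 3.66-fold lower level (adjusted p = 2.11e-04), at the 97.2nd percentile of all genes by size. cbf12 was higher there by 1.21 ± 0.10, 2.31-fold, and sre2 by 0.86 ± 0.09, 1.82-fold. The difference was -0.89 ± 0.06 for cbf11, -0.84 ± 0.18 for mbx2 and -0.48 ± 0.06 for adn3, all lower in replicate 1. For adn2 (-0.17 ± 0.10, adjusted p = 0.168) and fkh2 (-0.33 ± 0.20, adjusted p = 0.194) the difference did not pass. Without YEPD replicate 1, however, both passed, with -0.36 (adjusted p = 8.09e-04) and -0.76 (adjusted p = 4.21e-04), and without YEPME replicate 1 they were 0.02 and 0.10. In each of the 6 genes that passed, both replicate 1 arrays lay outside the range of the other 4, as they did for 76.8% of all genes. The size of the mbx2 shift rests on single arrays, being -1.24 without YEPME replicate 1 and -0.45 without YEPD replicate 1. The 2 MADS-box genes were thus both lower in replicate 1, and the 2 CSL genes lay on opposite sides. Whether replicate 1 differs in its cultures or in its array processing cannot be told apart.

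**Figure D4:**
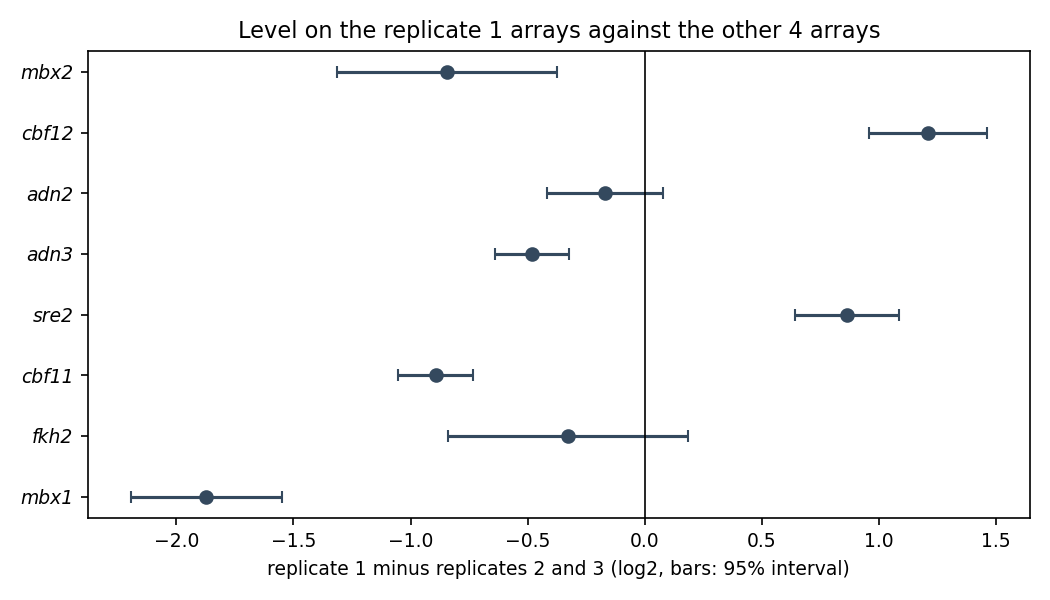
Level on the replicate 1 arrays minus that on the replicate 2 and 3 arrays (x axis, log2) for each factor (y axis), with 95% intervals from limma. mbx1 lies lowest at -1.87 and cbf12 highest at 1.21.

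Among other genes known to act on flocculation, 2 of 10 measured rose with the block, against 0.76% of all genes higher: lkh1, for a LAMMER kinase, by 0.33 and pmk1, for the cell integrity MAP kinase, by 0.42 (limma, adjusted p = 0.0404 for both). lkh1 differed by 0.36, 0.33 and 0.29 and pmk1 by 0.49, 0.36 and 0.40 in the 3 pairs. Neither passed with the replicate number as a block, which treats same-numbered arrays as pairs (limma, adjusted p = 0.189 for lkh1 and 0.177 for pmk1). Of 10 partner and family transcription factors, 1 rose with the block: mei4, for the meiotic forkhead factor, by 0.60 (adjusted p = 0.031, or 0.177 when the arrays are paired by replicate number). Within replicates 2 and 3, 4 of these 10 rose and 1 fell, against 6.91% and 8.7% of all genes. Among them map1, for the MADS-box factor of P cells, rose by 0.49 there after -0.43 in replicate 1. ste11, for the activator of mating genes, rose by 0.19, and res1, for a G1/S factor, fell by 0.41. In replicate 1, the forkhead genes mei4 and fkh2 gave 0.58 and -0.87, and fhl1, a forkhead gene named after its values were seen, gave -0.21. The MADS-box gene map1 gave -0.43 there, beside -0.54 for mbx1 and 0.73 for mbx2.

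The calls among these linked genes depend on which arrays are kept. With the block, 6 list genes were called (map3, for a pheromone receptor of P cells, is the one not given above). Of these 6, 0 passed limma with the replicate number as a block, as for 0% of all genes. All 6 passed without YEPME replicate 1 or YEPD replicate 1, where the difference rests on replicates 2 and 3. In contrast, 0 passed limma without YEPME replicate 2, YEPME replicate 3, YEPD replicate 2 or YEPD replicate 3. Over all genes, calls with the block ran from 0 to 452 when single arrays were left out. Of the 17 called within replicates 2 and 3, 0 passed without YEPD replicate 2 or YEPD replicate 3, 17 without YEPME replicate 2 and 15 without YEPME replicate 3.

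Likeness of pattern over the 6 arrays was measured as the root mean square distance after centring each gene on its own mean, in log2 units, and is a description set mostly by the split of replicate 1. The nearest genes to mbx2 were zuo1, for a ribosome-associated chaperone (0.06), and his4 (0.06). For cbf12 they were nca2 (0.06) and gst1, for a glutathione transferase (0.06), and for cbf11 tim22, of mitochondrial import (0.04), and rad15, for a DNA repair helicase (0.04). adn2 lay nearest to atp11 (0.03) and pdp1 (0.04), adn3 to nup132, for a nucleoporin (0.02), and tfb2, of transcription factor TFIIH (0.03). sre2 had mrpl37 (0.04) and vrp1 (0.05), fkh2 had vps52 (0.06) and seb1 (0.08), and mbx1 had bdp1, of RNA polymerase III initiation (0.07), and sfp1 (0.07). The median distance from a factor to all genes ran from 0.26 for adn2 to 0.90 for mbx1. No factor was among the 2 nearest genes of another. Within the 8, mbx2 and cbf11 were closest (0.16) and mbx1 and cbf12 farthest apart (1.49).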

How the data were processed

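The deposited values are log2 levels of probe sets on 6 Affymetrix arrays, which the authors made with RMA (background correction, quantile normalization and probe summary) and Partek, per the submitters' processing notes. The versions and settings, and whether RMA took all arrays at once, are not stated in these sources. The median over all probe sets was 5.34 and 5.36 on the replicate 1 arrays of YEPME and YEPD, against 4.59 to 4.65 on the others. The background limit was 5.59 and 5.60 there, against 4.78 to 4.81. Over the S. pombe genes alone the median was 10.22 on both replicate 1 arrays, against 10.28 to 10.31, so the higher median was not seen for these genes. Whether separate RMA runs gave this offset was not tested. Of 10924 probe sets, 2914 were annotated to 1 S. pombe gene, giving 2896 genes (the brightest probe set where there were several). Names follow RefSeq ASM294v3. Background was the 95th percentile of 2600 S. cerevisiae probe sets on each array. limma 3.58.1 in R 4.3.3 (lmFit, eBayes, two-sided, Benjamini-Hochberg over all genes, adjusted p under 0.05) was run on 6 arrays with no block as the planned test, with replicate 1 against 2 and 3 as a block, within replicates 2 and 3, and with an interaction term. The code was tested on simulated data. Deviations from the group means correlated at 0.853, 0.835 and 0.836 for arrays of the same replicate number 1, 2 and 3. They correlated at 0.816 between numbers 2 and 3 and at -0.84 between number 1 and the others. The rule used took same-numbered arrays as paired. These values mostly follow the split of replicate 1, so they cannot show whether numbers 2 and 3 are truly paired. Besides the 8 factors, genes were named as the 2 nearest to each factor and as list members past a test, up to 4 per list within replicates 2 and 3; exceptions are marked. A planned list is not reported here. Members and lists were chosen with earlier results of these data known. Alternatives tried were other scalings, a filter on dim genes, averaged probe sets, another variance model, a stricter threshold, the replicate number as a block and leaving out each array. The number of arrays limits the precision.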

Additional observations from a re-analysis of the deposited data

Results flagged for a closer look

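The difference between YEPME and YEPD departed between replicate 1 and replicates 2 and 3 for 5 of the 8 factors in the limma interaction test. The departure, on the log2 scale, was -0.53 for mbx1, 0.80 for mbx2, 0.37 for cbf12, -0.38 for adn2 and -0.86 for fkh2. The share of all genes with such a departure was 46.4%, so these 5 do not stand apart from other genes on that count. For adn2 the sign of the difference itself was opposite, with -0.15 in replicate 1 and 0.22 and 0.25 in replicates 2 and 3, and for mbx2 it was 0.73 against -0.06 and -0.07.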

How the results depend on the processing

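With no block, 0 of the 8 factors passed under each alternative tried; the replicate block, in which same-numbered arrays are paired, also gave 0 (1 at an unadjusted p under 0.05, against 10.9% of all genes). It changed no call of a factor with all 6 arrays, but under it the 6 linked genes called with replicate 1 as a block, map4, mam3, lkh1, pmk1, mei4 and map3, no longer passed (adjusted p = 0.177 to 0.189). Leaving out each array gave 0 to 0 factors with no block, 0 to 1 with replicate 1 as a block (adn2, without either replicate 1 array), 0 to 1 within replicates 2 and 3, 4 to 5 in the interaction test and 6 to 8 for levels between replicates. At an adjusted p under 0.01, adn2 no longer passed within replicates 2 and 3, leaving 0. Uncalled differences that turned sign within replicates 2 and 3 were 0.0051 for mbx1 and 0.0022 for fkh2 with arrays centred on their median and -0.0067 for sre2 after quantile normalization. Without single arrays and with no block, differences ran from -0.72 to 0.53 for mbx1, -0.21 to 0.43 for mbx2, -0.23 to 0.37 for cbf11, -0.18 to 0.63 for cbf12, -0.12 to 0.20 for adn3 and -0.29 to 0.28 for sre2. With the block they ran from -0.063 to 0.30 for mbx2, -0.018 to 0.056 for adn3 and -0.11 to 0.028 for sre2. Within replicates 2 and 3 they ran from -0.036 to 0.017 for mbx1, -0.0077 to 0.10 for cbf11, -0.0024 to 0.11 for adn3, -0.076 to 0.13 for sre2 and -0.089 to 0.064 for fkh2. Levels between replicates ran from -0.36 to 0.023 for adn2 and -0.76 to 0.10 for fkh2. The cause was not tested. Over all genes, calls with the block numbered 60, against 0 at an adjusted p under 0.01 and 0 to 452 without single arrays. Within replicates 2 and 3 they numbered 452, against 753 with trend and robust settings, 142 at an adjusted p under 0.01 and 19 to 483 without single arrays, and in the interaction test 1344, against 591 and 592 to 1429. The alternatives for levels between replicates, and leaving out arrays in the interaction test, were added after seeing the data.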

Other observations

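Some genes linked to the factors had far larger differences in replicate 1 than in the other pairs, and are named after their values were seen. Among the lipid and biotin genes linked to Cbf11, vht1, for the biotin transporter, differed by 1.32, -0.11 and -0.13 in replicates 1, 2 and 3, bio2, for biotin synthase, by 0.96, -0.01 and -0.03, and lsd90 by 1.15, -0.03 and 0.25. Among sterol pathway genes, erg1, for squalene epoxidase, differed by -1.12, -0.02 and -0.02, hem13, of heme synthesis, by -0.96, 0.07 and 0.01, and sre1, for the sterol regulator related to sre2, by -0.77, -0.08 and -0.07. sre2 itself gave -0.16, -0.02 and 0.08.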
